A study of Caenorhabditis elegans with 6 samples.

Results

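The ugt genes of Caenorhabditis elegans encode UDP-glucuronosyltransferases and were taken here as every gene of the deposited count table whose WormBase symbol starts with ugt-. This gave 67 genes of 46748 in the table, each annotated as protein-coding. The enzymes sit in the membrane of the endoplasmic reticulum and move the sugar of a UDP-sugar, UDP-glucuronic acid or UDP-glucose, onto small fat-soluble molecules. The products dissolve better in water and can be carried out of the cell, so the family is counted among the conjugating enzymes of detoxification, after the oxidising cytochrome P450s and before the efflux pumps. In worms, glucose conjugates of drugs and of endogenous compounds are well known, and the gut is a main site of this chemistry.

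RNA came from whole hermaphrodites of the wild-type strain N2 at an age of 5 days by the label (counted, per the series title, from the last larval stage). By the perturbation label, 3 libraries belong to L4440, the plasmid with no insert that serves as control in RNA interference (RNAi) by feeding, and 3 to T25B9.1, a predicted glycine C-acetyltransferase gene of threonine breakdown. The comparison asks how transcript levels differ under that RNAi. Whole-animal RNA cannot tell fewer cells of a type from less RNA per cell.

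Library totals ran from 25480225 to 38621940 counts, and 12778 to 13752 genes had at least 10 counts in a library. The targeted gene was 3.31-fold higher, not lower, under its own RNAi label (log2 fold change 1.73 ± 0.245 SE, adjusted p by edgeR = 0.00483). Its level was 2.59, 3.68 and 3.28 CPM in the L4440-labelled libraries and 6.73, 12.7 and 12.1 CPM in those labelled T25B9.1, where CPM is the count scaled to the normalised library total. Each direction below is therefore that of the labels, libraries labelled T25B9.1 relative to libraries labelled L4440. Why the targeted gene was higher was not tested, and neither was whether the labels of the groups were exchanged. If the labels were exchanged, every difference below would have the opposite sign. The labels do not say that libraries of a group came from separate cultures, and the p-values may thus rest on technical spread alone. Among the ugt genes, ugt-54 lies closest to the target on chromosome IV, 11556 bases beyond its end, with a log2 fold change of 0.33 (± 0.151 SE, adjusted p by edgeR = 0.378).

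Of the 67 ugt genes, 58 had enough counts to be tested, and 11 of these 58 (19.0%) were lower under the T25B9.1 label (edgeR's quasi-likelihood test, Benjamini-Hochberg adjusted p under 0.05). Over all 13494 genes tested, 2.29% were lower and 1.13% higher by the same rule. By edgeR 0 ugt genes were higher, as by DESeq2 and limma-voom, with 5 higher and 18 lower at an unadjusted p under 0.05 (5.79% and 7.29% of all genes tested). The median log2 fold change of the 58 was -0.17, against 0.01 over all genes tested. Of the 58, 39 had a negative and 19 a positive log2 fold change, from -1.48 for ugt-62 to 0.91 for ugt-33. All libraries labelled T25B9.1 lay below all L4440-labelled ones for 19 members (32.8%, against 9.6% of all genes tested) and above them for 3 members (5.17%, against 8.29%).

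The largest difference among them was that of ugt-62 (WBGene00010904), on the minus strand of chromosome III at 4537281 to 4540623 in build WBcel235. It had 149.6, 144 and 146 CPM in the L4440-labelled libraries and 61.0, 43.2 and 52.9 CPM in those labelled T25B9.1. The L4440-labelled libraries were close together, the others spread more widely, and the groups were far apart. Means of 147 ± 2.62 and 52.4 ± 8.93 CPM (SD, n = 3) made it 2.80-fold lower under the T25B9.1 label (log2 fold change -1.48 ± 0.107 SE, adjusted p by edgeR = 0.000166). Scaled to exon length, ugt-62 was the most abundant member over all libraries and supplied 17.2% to 19.2% of the counts of the whole family in the L4440-labelled libraries. In the libraries labelled T25B9.1 it supplied 8.09% to 9.59%.

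The other abundant members that were lower were ugt-44 and ugt-22. For ugt-44 (chromosome IV, 10469741 to 10471899, plus strand) the L4440-labelled libraries held 86.8, 89.5 and 101 CPM and those labelled T25B9.1 held 50.1, 49.3 and 50.5 CPM. The latter were nearly equal, and ugt-44 was 1.85-fold lower (log2 fold change -0.89 ± 0.0682 SE, adjusted p by edgeR = 0.000145). For ugt-22 (chromosome IV, 13639260 to 13644567, plus strand) the levels were 98.3, 95.3 and 113 CPM against 73.0, 67.1 and 82.8 CPM, a smaller difference of 1.37-fold (log2 fold change -0.46 ± 0.0889 SE, adjusted p by edgeR = 0.0172). The ugt-22 call was lost without L4440 replicate 3 (edgeR adjusted p = 0.0619) and without T25B9.1 replicate 1 (0.0821).

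Since the 3 most abundant members were lower by different amounts, their order was not the same in the groups. In RPKM (CPM per kilobase of exon, computed here from the counts), the L4440-labelled libraries had ugt-62 at 86.8 ± 1.552, ugt-44 at 50.7 ± 4.10 and ugt-22 at 46.0 ± 4.14 RPKM (SD, n = 3). The libraries labelled T25B9.1 had ugt-22 at 33.5 ± 3.57, ugt-62 at 31.0 ± 5.28 and ugt-44 at 27.5 ± 0.337 RPKM (SD, n = 3). In the L4440-labelled libraries ugt-62 stood apart from the other two, while under the T25B9.1 label neighbours in this order differed by less than their spread.

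Of the members of middle abundance, ugt-19 and ugt-21 were lower by more than 2-fold. The level of ugt-19 (chromosome IV, 6076686 to 6079952, minus strand) was 12.1, 9.97 and 12.2 CPM in the L4440-labelled libraries and 5.63, 4.29 and 4.70 CPM in those labelled T25B9.1 (log2 fold change -1.23 ± 0.135 SE, adjusted p by edgeR = 0.000660). For ugt-21 (chromosome IV, 9500311 to 9502574, plus strand) it was 8.20, 11.1 and 9.58 CPM against 4.74, 3.93 and 5.31 CPM (log2 fold change -1.03 ± 0.150 SE, adjusted p by edgeR = 0.00326). In both, every L4440-labelled library was well above every library labelled T25B9.1.

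The remaining 6 members that were lower had L4440-labelled means from 4.52 to 12.8 CPM. For ugt-43 the levels were 7.14, 8.93 and 9.78 CPM against 5.07, 4.57 and 5.29 CPM (log2 fold change -0.79 ± 0.140 SE, adjusted p by edgeR = 0.0103). For ugt-6 they were 5.18, 4.28 and 4.98 CPM against 2.80, 2.73 and 2.95 CPM (log2 fold change -0.77 ± 0.135 SE, adjusted p by edgeR = 0.00969). These calls, like those of ugt-62, ugt-44, ugt-19 and ugt-21, were kept without any single library, although ugt-43 and ugt-6 came close to the threshold, with edgeR adjusted p-values of up to 0.0492 and 0.0491. The other 4 depended on single libraries. The levels of ugt-2 were 6.45, 7.005 and 7.89 CPM against 4.74, 3.73 and 4.33 CPM (log2 fold change -0.73 ± 0.135 SE, adjusted p by edgeR = 0.0127, and 0.0658 without L4440 replicate 3). Those of ugt-17 were 11.3, 14.2 and 12.8 CPM against 8.83, 8.75 and 7.87 CPM (log2 fold change -0.59 ± 0.113 SE, adjusted p by edgeR = 0.0158). For ugt-17 it was 0.0663 and 0.0600 when L4440 replicate 2 or 3 was left out, and 0.0518 and 0.0642 when T25B9.1 replicate 1 or 3 was. Those of ugt-53 were 8.55, 6.48 and 9.40 CPM against 3.94, 3.69 and 5.62 CPM (log2 fold change -0.88 ± 0.187 SE, adjusted p by edgeR = 0.0293). Leaving out L4440 replicate 1 or 3 gave an edgeR adjusted p of 0.0768 or 0.113, and leaving out T25B9.1 replicate 1 or 2 gave 0.124 or 0.0735. The lowest in level was ugt-16, with 3.71, 4.64 and 5.20 CPM against 1.94, 2.57 and 3.04 CPM (log2 fold change -0.84 ± 0.191 SE, adjusted p by edgeR = 0.0377). Leaving out L4440 replicate 2 or 3 gave an edgeR adjusted p of 0.117 or 0.163, and leaving out T25B9.1 replicate 1 or 2 gave 0.149 or 0.0741. Without L4440 replicate 3, 6 members were called in all, and 1.29% of all genes tested were lower. Without T25B9.1 replicate 1, 7 members were called, and 1.52% of all genes tested were lower.

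**Figure D1:**
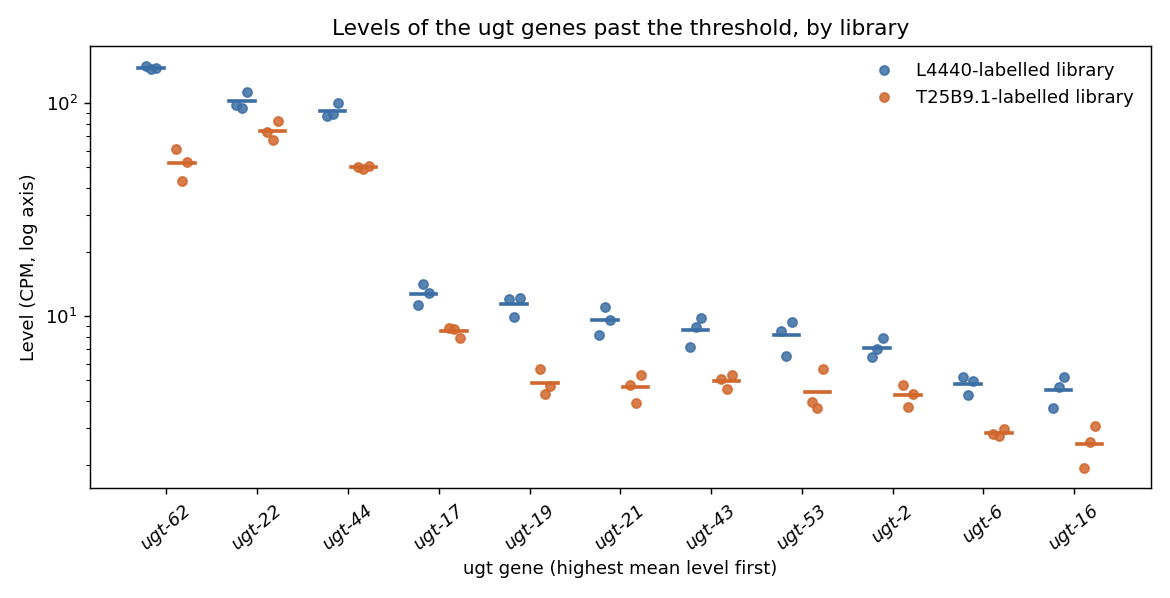
Level in CPM (log axis) of each of the 11 ugt genes past the threshold, with a point for each library and a bar for the mean of each label group. In each of the 11 the libraries labelled T25B9.1 lie below all L4440-labelled libraries, most widely apart for ugt-62 and ugt-19.

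**Figure D2:**
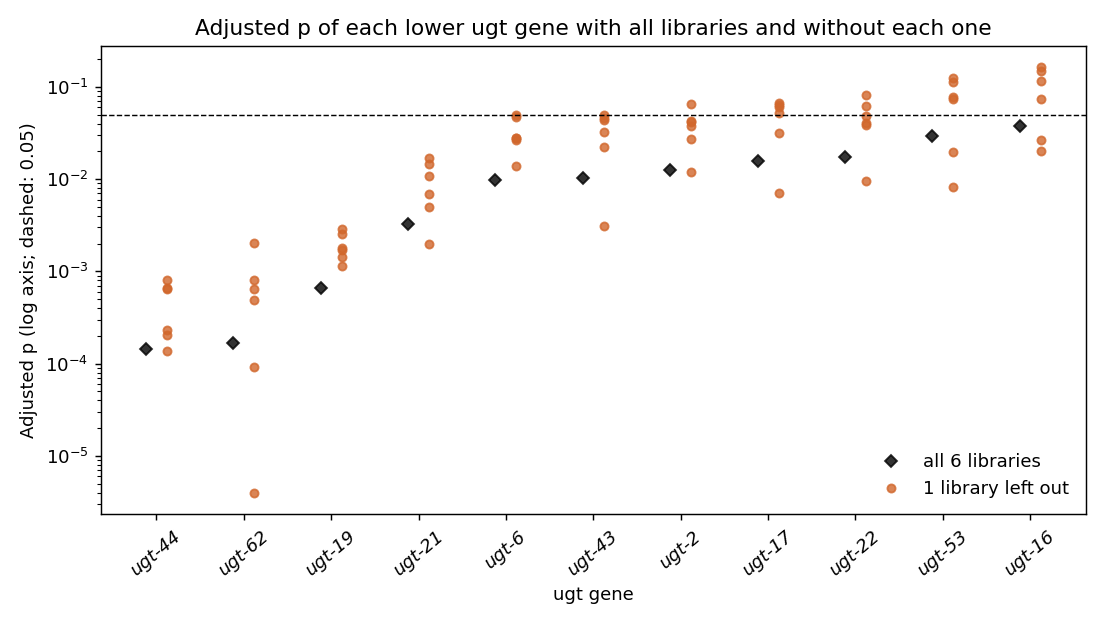
Adjusted p (edgeR, log axis) of the same 11 genes with all 6 libraries (diamonds) and with each library left out in turn (circles), with the threshold of 0.05 as a dashed line. For 6 genes every circle is below the line, and for ugt-2, ugt-17, ugt-22, ugt-53 and ugt-16 at least 1 is above it.

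Summed over the family, the L4440-labelled libraries held 778, 779 and 851 CPM and those labelled T25B9.1 held 637, 534 and 618 CPM. The 11 members that passed made up 397, 396 and 431 CPM of this in the L4440-labelled libraries and 222, 194 and 225 CPM under the T25B9.1 label. The other 56 members summed to 381, 383 and 419 CPM against 415, 340 and 393 CPM, so those sums overlapped. As the 11 were picked by this same contrast, the split is a description only. L4440 replicate 3 had the highest family sum, and T25B9.1 replicate 2 the lowest.

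Abundance spanned 333-fold among the tested members, from 0.177 RPKM for ugt-36 to 58.9 RPKM for ugt-62. Of the 8 members at 10 RPKM and above, 3 were lower (37.5%), where 2.82% of all tested genes in that class were. Of the 35 from 1 to 10 RPKM, 8 were lower (22.9%, against 2.79%). Of the 15 under 1 RPKM, 0 passed by edgeR, DESeq2 or limma-voom, where 0.295% of all tested genes in that class were lower. At an unadjusted p under 0.05, edgeR had 3 of the 15 and DESeq2 had 0. These 3 were positive, with log2 fold changes of 0.91 for ugt-33 and 0.71 for ugt-9 and ugt-18. Over all genes tested, of any level, 5.79% were higher at that p in edgeR. The median log2 fold changes of the 3 classes were -0.15, -0.24 and -0.04 from the highest class to the lowest. With the same limits set on CPM, not scaled to length, 4 of 17 members at 10 and above were lower (23.5%, against 2.87% of all tested genes in that class), 7 of 30 from 1 to 10 (23.3%, against 2.34%) and 0 of 11 under 1, where 0.507% of all tested genes were lower. On that scale the medians were -0.15, -0.26 and 0.38, so the sign of the lowest class and the higher share of the top class depended on the scale.

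In the upper class, the next members by level did not pass. In RPKM, ugt-63 had 28.2 ± 0.936 and 25.6 ± 2.93 (SD, n = 3; log2 fold change -0.14 ± 0.0866 SE), and ugt-58 had 24.96 ± 0.830 and 23.9 ± 1.41 (log2 fold change -0.06 ± 0.0698 SE). The level of ugt-25 was 23.2 ± 4.07 and 25.01 ± 3.60 RPKM (log2 fold change 0.11 ± 0.137 SE). In the L4440-labelled libraries ugt-63 was above ugt-58 by more than their spread, and under the T25B9.1 label these 3 neighbours in rank differed by less than it.

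**Figure D3:**
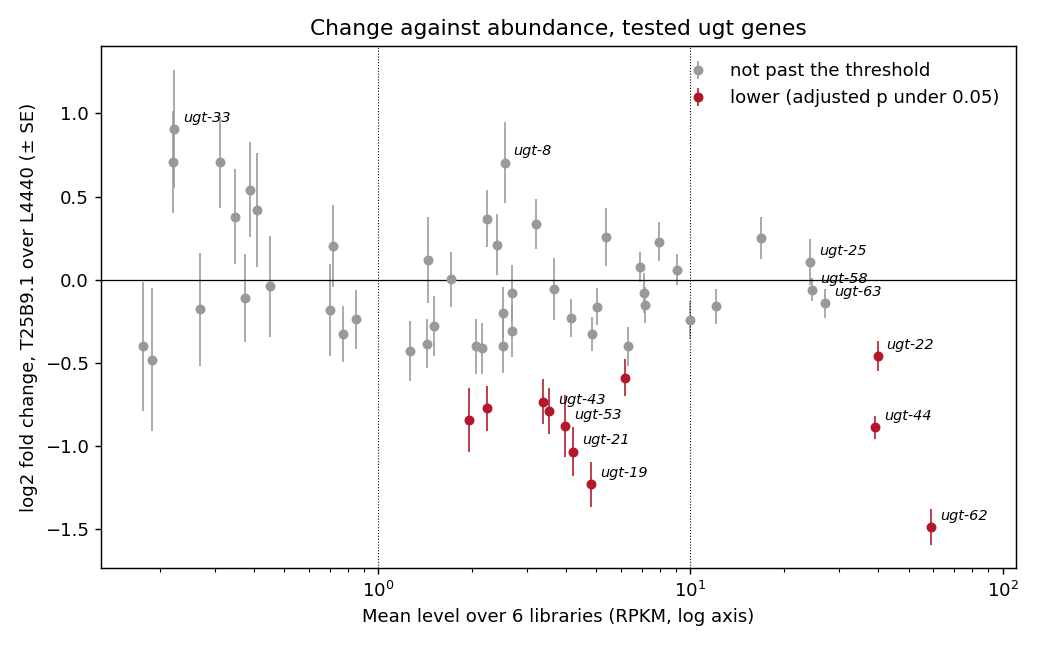
Log2 fold change (libraries labelled T25B9.1 over those labelled L4440, bars ± SE) against the mean level over 6 libraries in RPKM (log axis) for the 58 tested ugt genes, with dotted lines at 1 and 10 RPKM. The genes that were lower lie between 1.96 and 58.9 RPKM, and the positive values above 0.5 come from genes under 1 RPKM and from ugt-8.

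Among members that did not pass, with a mean of at least 50 counts, ugt-8 had the largest difference and a positive one. It had 3.60, 3.00 and 3.61 CPM in the L4440-labelled libraries and 7.63, 3.53 and 5.43 CPM in those labelled T25B9.1 (log2 fold change 0.70 ± 0.242 SE, adjusted p by edgeR = 0.211). T25B9.1 replicate 2 was within the range of the L4440-labelled libraries and the other two were above it. Without T25B9.1 replicate 2, ugt-8 was called higher (log2 fold change 0.92, edgeR adjusted p = 0.0145), as was ugt-41, and 9 members were lower. In that fit 347 of 13761 genes tested were called, and 219 of these, 1.59% of all genes tested, were lower. The next 3 by size were negative: ugt-52 (-0.43 ± 0.183 SE), ugt-39 (-0.41 ± 0.153 SE) and ugt-60 (-0.40 ± 0.164 SE), with edgeR adjusted p-values of 0.339, 0.246 and 0.312. For ugt-39 and ugt-60 the groups of libraries did not overlap, and for ugt-52 they did. The 3 tested members whose T25B9.1-labelled libraries all lay above the L4440-labelled ones were ugt-45, ugt-9 and ugt-18, with log2 fold changes of 0.08, 0.71 and 0.71 and edgeR adjusted p-values of 0.817, 0.278 and 0.349. The 2 latter had a mean of 16.5 and 11.8 counts per library.

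The 9 untested members, ugt-10, ugt-15, ugt-34, ugt-35, ugt-38, ugt-42, ugt-56, ugt-57 and ugt-67, had 0 to 15 counts per library. The sole read of ugt-67 was in T25B9.1 replicate 1. In the other libraries a count of 0 allows up to 3 counts, or 0.0746 to 0.120 CPM, by counting error only. The gene ugt-15, at 1, 1 and 1 counts under the L4440 label against 5, 3 and 9 under the T25B9.1 label, was too low to test. So was ugt-57, with 4, 5 and 8 counts against 8, 7 and 12, whose CPM values did not overlap either.

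The family is spread over every chromosome, with 42 members on V, 12 on IV, 5 on I, 4 on X, 3 on III and 1 on II. Of the 12 on chromosome IV, all tested, 5 were lower, where 2.84% of all tested genes of that chromosome were. Of the 34 tested on chromosome V, 5 were lower, where 4.16% of all tested genes there were. The remaining gene that was lower, ugt-62, is 1 of the 3 on chromosome III.

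Runs of neighbours, joined here where gaps between ugt gene models were at most 10 kb, held 37 members in 11 runs, and 30 members lay alone. Of 30 tested members in runs 7 were lower, and of 28 tested members that lay alone 4 were, with median log2 fold changes of -0.16 and -0.18. The 7 lay in 6 runs. In the pair ugt-43 and ugt-44 both members were lower, and ugt-44 had 12.2, 10.02 and 10.3 times the counts of ugt-43 in the L4440-labelled libraries against 9.88, 10.8 and 9.55 times under the T25B9.1 label. These ratios overlapped.

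In the other 5 runs 1 member was lower beside neighbours that did not pass. Next to ugt-19, ugt-20 was at -0.24 in log2 fold change (± 0.178 SE, adjusted p by edgeR = 0.682), and ugt-19 had 6.98, 6.92 and 8.48 times the counts of ugt-20 in the L4440-labelled libraries against 4.36, 3.57 and 3.34 times under the T25B9.1 label. For ugt-17 and its neighbour ugt-47 (0.23 ± 0.119 SE, adjusted p by edgeR = 0.476), this ratio was 1.05, 1.18 and 0.954 against 0.548, 0.683 and 0.580. For ugt-2 and ugt-1 (0.12 ± 0.256 SE, adjusted p by edgeR = 0.915), it was 3.15, 3.07 and 2.73 against 2.52, 1.69 and 1.17. In these 3 pairs the ratios of the groups did not overlap, and they are given without a test, since the pairs were formed around the genes that passed.

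The run of ugt-5, ugt-4, ugt-6 and ugt-3 spans 12790676 to 12800271 on chromosome V. Beside ugt-6, the log2 fold changes were -0.31 for ugt-5 (SE 0.155), -0.06 for ugt-4 (SE 0.186) and -0.18 for ugt-3 (SE 0.339), with edgeR adjusted p-values of 0.464, 0.948 and 0.905. The ratio of ugt-6 to ugt-3, which had 10 to 20 counts per library, overlapped between the groups, and those to ugt-5 and ugt-4 did not. These ratios too are a description without a test, since they were formed around a gene that passed. In the run of ugt-18, ugt-16 and ugt-15, the low ugt-18 had a positive value beside ugt-16 (0.71 ± 0.307 SE). With the counts of each run summed to 1 feature, 2 runs passed, ugt-19 with ugt-20 (log2 fold change -1.07 ± 0.124 SE, adjusted p by edgeR = 0.000852) and ugt-43 with ugt-44 (-0.88 ± 0.0699 SE, adjusted p by edgeR = 0.000174). The 8-gene run from ugt-12 to ugt-13 had a summed log2 fold change of 0.07 (± 0.127 SE, adjusted p by edgeR = 0.894), and that of 6 genes from ugt-40 to ugt-36 of 0.17 (SE 0.116, adjusted p by edgeR = 0.637).

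**Figure D4:**
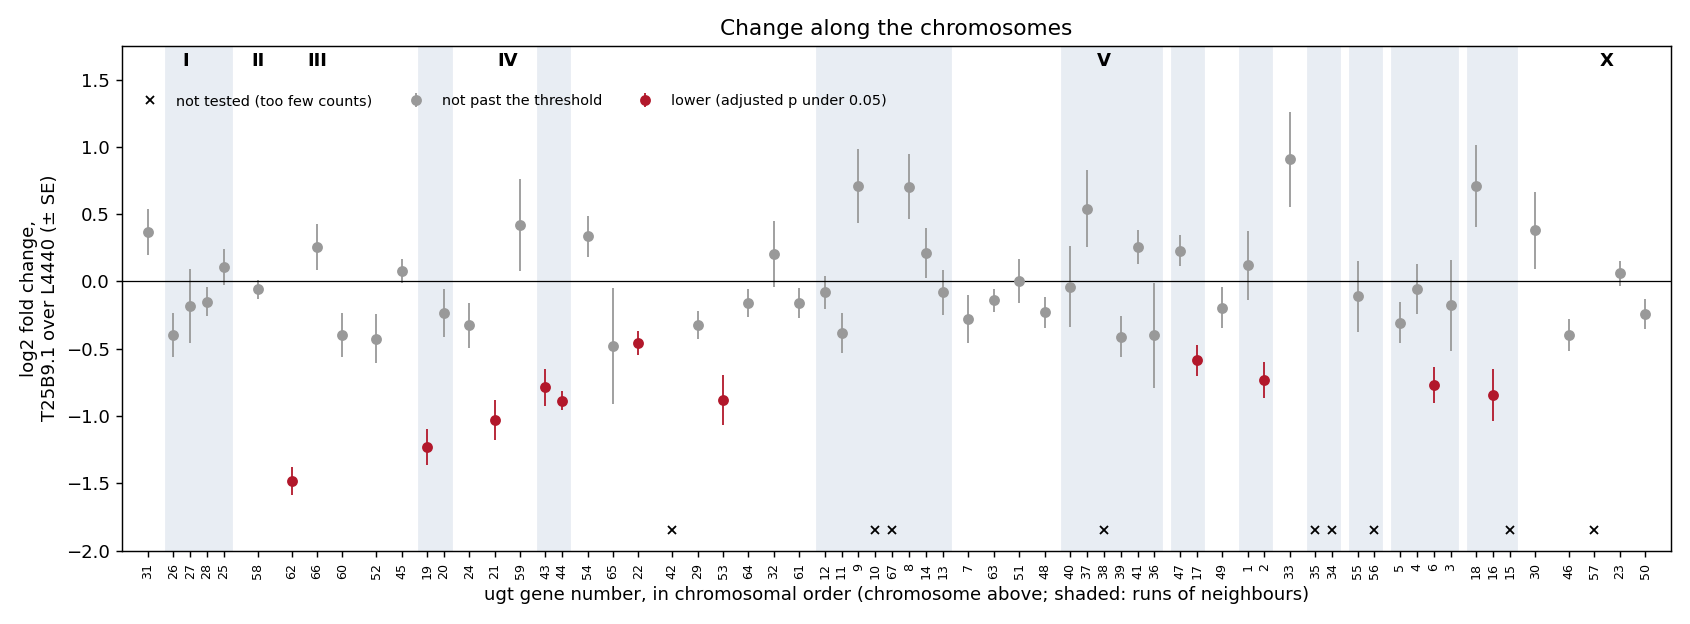
Log2 fold change (± SE) of the 67 ugt genes in chromosomal order, not to genomic scale, with runs of neighbours shaded and untested members as crosses at the foot. In runs with a member past the threshold, it is 1 of its run, except in the pair of ugt-43 and ugt-44.

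The nearest protein-coding genes outside the family on each side of the 11 members that passed were 20 genes, 9 of them tested. Of these 9, 0 passed by edgeR, DESeq2 or limma-voom, and 2 had an unadjusted p under 0.05 in edgeR. By edgeR 2.29% of all genes tested were lower and 1.13% higher, so 0 of 9 is near the share of any genes. At an unadjusted p under 0.05, 7.29% of all genes tested were lower and 5.79% higher, and the 2 neighbours differed in sign. The closest to the threshold was C08B6.2, 747 bases beyond ugt-17, with a mean of 24.3 counts (log2 fold change -1.25 ± 0.311 SE, adjusted p by edgeR = 0.0602), and next was ZC443.4, beside the run of ugt-16 (0.48 ± 0.137 SE, adjusted p by edgeR = 0.112). On either side of ugt-62, cdh-4 and mrps-34 had 0.30 (SE 0.153) and 0.03 (SE 0.0727).

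Exons of 17 members overlap those of another gene, and the library kit does not mark strand. Of the 11 that passed, 3 are among them. The largest of these overlaps is of ugt-22 with srz-29 on the other strand, 309 bases or 13.9% of its exon length, and srz-29 had 0 or 1 count in each library. For ugt-19 it is 13 bases of a piRNA gene and for ugt-21 3 bases of a pseudogene. How the authors counted reads shared by similar copies is not given in the sources, and the part of such reads was not tested.

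Genes of processes linked to the family were measured in 3 lists. For scale, edgeR called 2.29% of all genes tested lower and 1.13% higher. At an unadjusted p under 0.05 in edgeR, 7.29% were lower and 5.79% higher. The first held 12 genes of UDP-sugar metabolism, from hexokinases and phosphohexomutases, upstream of the UDP-sugars, to the UDP-glucose dehydrogenase gene sqv-4 and the UDP-sugar transporter gene sqv-7. Not all of them, sqv-1 and pgm-3 for example, lie on the route to UDP-glucose and UDP-glucuronic acid. Of the 12, 0 passed by edgeR, DESeq2 or limma-voom, and 0 had an unadjusted p under 0.05 in edgeR. Their median log2 fold change was 0.01. Of 22 ABC efflux transporters of the pgp and mrp families, which carry foreign compounds and conjugates out of cells, 1 was lower and 0 higher by each of these tools, 3 had an unadjusted p under 0.05, and the median was 0.07. It was the P-glycoprotein gene pgp-1, on chromosome IV, with 103, 93.8 and 73.7 CPM in the L4440-labelled libraries and 39.7, 39.0 and 35.1 CPM in those labelled T25B9.1 (log2 fold change -1.25 ± 0.115 SE, adjusted p by edgeR = 0.000403). Of 16 regulators of detoxification and stress, 1 was lower and 0 higher by the same tools, and it alone had an unadjusted p under 0.05, with a median of 0.05 for the list. That gene was nhr-8, a nuclear hormone receptor gene of drug resistance and sterol balance, with 16.7, 18.5 and 18.5 CPM against 13.2, 14.1 and 11.4 CPM (log2 fold change -0.47 ± 0.102 SE, adjusted p by edgeR = 0.0300). Leaving out L4440 replicate 2 or 3 gave an edgeR adjusted p of 0.0999 or 0.120, and leaving out T25B9.1 replicate 1 or 3 gave 0.0969 or 0.113.

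Tissue markers were set beside these values, since the libraries are of whole animals, as the label for tissue says. Of 7 intestinal markers, 2 were higher and 0 lower by edgeR, where 1.13% of all genes tested were higher and 2.29% lower. Those higher were pept-1, the gut peptide transporter gene (log2 fold change 0.91 ± 0.123 SE, adjusted p by edgeR = 0.00239), and ifb-2, an intestinal intermediate filament gene (0.74 ± 0.0841 SE, adjusted p by edgeR = 0.000771). The most negative were act-5 (-0.29 ± 0.0858 SE, adjusted p by edgeR = 0.127) and ges-1 (-0.28 ± 0.0704 SE, adjusted p by edgeR = 0.0639), which did not pass. In all, 4 of the 7 had a negative and 3 a positive log2 fold change, and 4 had an unadjusted p under 0.05 in edgeR. DESeq2 called 1 of the 7 lower. The median was -0.04, and the summed level ran from 301 to 329 CPM in the L4440-labelled libraries and from 291 to 326 CPM under the T25B9.1 label. Most of that sum came from act-5, with means of 125 and 102 CPM under the labels L4440 and T25B9.1, and vha-6, with 101 and 98.3 CPM. Such sums thus follow their most abundant genes. The summed ranges also overlapped for markers of hypodermis (254 to 261 CPM against 242 to 256 CPM, of which lin-26 alone had means of 204 and 203 CPM), body-wall muscle, neurons, germline and oocytes. They did not for the 3 pharyngeal markers, which summed to 16.2 to 30.9 CPM in the L4440-labelled libraries and 32.3 to 41.0 CPM under the T25B9.1 label, where 0 passed by edgeR, 2 had an unadjusted p under 0.05, and 1 was higher by DESeq2 and by limma-voom. Their part in the levels of the ugt genes was not tested.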

How the data were processed

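RNA was sequenced from 6 libraries of whole animals. The deposited table gives raw counts per gene. Per the submitters' processing notes, the authors used build WBcel235 and the tools featureCounts 1.4.6-p4, STAR 2.4.1d and bcl2fastq 1.8.4. A deposited RPKM table was not used. Libraries were grouped by the perturbation label and numbered in accession order within a group. The source name, which is T25B9.1 RNAi in each of the 6, was not used. Within a group, the chi-square per degree of freedom between libraries was 6.18 to 40.8, so none was counted as a duplicate.

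Symbols were matched for 43693 of 46748 identifiers, and positions and exon lengths came from Ensembl release 115 of the same build. Genes were tested by edgeR's quasi-likelihood method (edgeR 4.0.16, R 4.3.3) with TMM factors, a robust fit, no covariate and filterByExpr at a minimum count of 10, fitted over all 13494 genes that passed, with Benjamini-Hochberg adjustment over these and a threshold of 0.05. The standard error is the log2 fold change over the square root of F. The fit, not this error, was tested on simulated counts with known changes. CPM and RPKM use TMM-normalised totals. With 3 libraries a group, exact permutation p-values start at 0.1, so none was computed. Alternatives used DESeq2 1.42.0, limma-voom (3.58.1), other factors and filters, a block, and each library left out.

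Members, lists and tests were chosen with earlier results of these data known. Named members are those past the threshold, the 6 highest per length, the 4 largest changes not past it at 50 or more counts on average, and members of runs that hold a gene past it. Their nearest protein-coding neighbours and list members past the threshold were also named. Outside this rule, ugt-33, ugt-36, ugt-41, ugt-45, ugt-46, ugt-54, ugt-9, the ends of 2 other runs and the untested genes were named after their values were seen.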

Additional observations from a re-analysis of the deposited data

How the results depend on the processing

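The 11 members that passed were the same 11, all lower, with RLE or upper-quartile factors, with a mean of at least 50 counts, by DESeq2 and by limma-voom. With no filter on low counts ugt-46 was lower as well. With 1 library left out, 6 to 11 members were called, all lower except ugt-8 and ugt-41 without T25B9.1 replicate 2. In these fits 1.29% to 2.68% of all genes tested were lower, and 6 of the 11 passed in every fit. The family's median log2 fold change stayed between -0.24 and -0.14 over all alternatives. The 3 pathway lists held 2 calls in all, and 1 to 2 with 1 library left out. With the counts of a run summed, 2 runs passed in place of the 6 that held a called member, and the cause was not tested. Runs joined at 5 kb or 20 kb numbered 12 and 10 in place of 11. With abundance classes set on CPM, the number of members lower in each class stayed within 1.5 times, but the top class held 17 tested members in place of 8 (23.5% lower in place of 37.5%), and the median log2 fold change of the lowest class turned from -0.04 to 0.38. Signs were followed for the 25 members named by the rule above only. Of these, the sign changed without 1 library for ugt-1 (range -0.25 to 0.31), ugt-3 (-0.47 to 0.057) and ugt-4 (-0.21 to 0.14), none of which passed in any fit. Over all tested members, 37 to 40 were negative in the fits without 1 library, against 39 in the main fit. Libraries with consecutive numbers in their titles (15 and 16, 19 and 20, 23 and 24) had correlations of their deviations of -0.0514, 0.124 and 0.222. The other pairings of an L4440-labelled with a T25B9.1-labelled library had -0.213 to 0.0613. So few values cannot decide whether the libraries are paired, and the main fit has no block. With consecutive libraries as a replicate block, 12 members passed, the 11 as lower and ugt-8 as higher (log2 fold change 0.68, edgeR adjusted p = 0.0471). In that fit 597 of 13494 genes tested were called, and 389 of these, 2.88% of all genes tested, were lower. The edgeR adjusted p of the target in the block fit was 6.25e-05.

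Precision is limited by 3 libraries a group and, for members under 1 RPKM, by their few counts.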
